A study of Mus musculus with 32 samples.

Results

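The genes described here encode BiP, the Hsp70 chaperone of the endoplasmic reticulum (ER), and the ER proteins that set its ATPase cycle. They were chosen by name: Hspa5 (BiP), its nucleotide exchange factors Hyou1 and Sil1, the J-domain proteins Dnajb9, Dnajb11, Dnajc3, Dnajc10 and Sec63, the Dnajb11 partner Sdf2l1, and Manf. All 10 of these symbols were present among the 20234 genes of the table, and all 10 passed the filter on low counts in each of the 3 fits. The cells were mouse embryonic fibroblasts (MEFs), which are connective tissue cells cultured from embryos. One group had 0 h of thapsigargin (control), and the others had 1 h, 16 h, or 16 h with PERK inhibited during the final 4 h. All 3 treated groups carried thapsigargin, an inhibitor of the pump that moves calcium into the ER. Each of the 16 samples (4 per group) gave a cytosolic RNA library and a library of polysome RNA, the mRNA that sedimented with more than 4 ribosomes, 32 libraries in all. The strain or isolate of the MEFs, the doses, the inhibitor's name and any solvent control are not given in the sources used. No group received the inhibitor without thapsigargin.

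BiP binds unfolded proteins in the ER lumen. J-domain proteins bring substrates to it and stimulate its ATP hydrolysis, and exchange factors replace ADP with ATP so that the substrate is released. BiP also binds the stress sensors PERK, IRE1 and ATF6. When unfolded proteins accumulate, ATF6 and the spliced form of XBP1 activate transcription of ER chaperone genes through ER stress response elements in their promoters. PERK phosphorylates the initiation factor eIF2, which lowers translation of most mRNAs. The comparisons asked how far the mRNAs of this system had risen or fallen at an early and at a late time of stress, how far they were found on polysomes, and which of these levels depended on PERK activity late in stress.

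Promoter sequence was searched for the ER stress response element, since the rise of Hspa5 in stress is the textbook case of its action. RefSeq promoters of build GRCm38.p6 (250 bases before to 50 after the start site) were present for 7 of the 10 genes. On both strands, 3 motifs were searched: the ER stress response element (CCAAT, 9 bases of any kind, CCACG), its second form (ATTGG, 1 base of any kind, CCACG), and TGACGTGG, the core of the unfolded protein response element. Of 32851 promoters of the same length, 0.119% held the first motif, 0.0365% the second and 0.676% the third. The first motif matched in Hspa5, at positions -65 to -47 from the start site, and in Dnajc3, at -105 to -87. The second matched in Dnajb11, from base 8 to base 18 after the start. No match of the 3 motifs was found in Dnajb9, Dnajc10, Sec63 or Sdf2l1, and TGACGTGG matched in none of the 7. Capitals in the lines that follow mark the match. The Sdf2l1 promoter, of which the 250 bases before the start are shown, is that of a strongly rising gene with no full match in its window. A match is a description of the letters and not a tested site.
Hspa5, chr2:34772020-34772049, plus strand: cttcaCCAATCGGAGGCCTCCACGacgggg
Dnajb11, chr16:22857843-22857872, plus strand: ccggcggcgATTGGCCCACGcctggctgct
Dnajc3, chr14:118937682-118937931, plus strand: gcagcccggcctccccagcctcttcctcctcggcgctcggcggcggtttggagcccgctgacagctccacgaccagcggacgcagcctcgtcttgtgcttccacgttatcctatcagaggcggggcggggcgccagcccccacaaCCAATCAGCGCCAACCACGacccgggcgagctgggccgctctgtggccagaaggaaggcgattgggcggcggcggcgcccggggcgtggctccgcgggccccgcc
Sdf2l1, chr16:17132384-17132633, minus strand: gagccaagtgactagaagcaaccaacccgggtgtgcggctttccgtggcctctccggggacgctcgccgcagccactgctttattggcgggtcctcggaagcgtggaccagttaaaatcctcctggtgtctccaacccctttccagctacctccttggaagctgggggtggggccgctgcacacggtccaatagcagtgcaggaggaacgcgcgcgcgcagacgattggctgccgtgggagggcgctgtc

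Positions of the matches are counted from the RefSeq start sites. The 2 annotations differ for Hspa5: its match lies before the RefSeq start and inside the gene as GENCODE places it. The match of Dnajc3 lies before the start, and that of Dnajb11 inside the gene, in both. Gene positions from GENCODE M21 (build GRCm38) place Hspa5 at chr2:34771970-34777547 on the plus strand, Hyou1 at chr9:44379490-44392369 on the plus strand and Manf at chr9:106838312-106891979 on the minus strand. Among the J-domain genes, Dnajb9 spans chr12:44205559-44210326 (minus), Dnajb11 chr16:22857845-22879634 (plus), Dnajc3 chr14:118937976-118981697 (plus), Dnajc10 chr2:80315466-80354043 (plus) and Sec63 chr10:42761496-42832514 (plus). Sdf2l1 lies at chr16:17130138-17132383 on the minus strand. All are annotated as protein coding. Counts are per gene, so a value covers the exons of a gene as the authors counted them.

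Library totals ran from 19317276 to 41776027 counts. The lowest count of any of the 10 genes in a library was 359 (Sdf2l1, polysome RNA at 1 h). Fibroblast markers (8 genes) summed to 7180 to 10100 CPM (counts on a per-million scale, from the TMM-scaled library totals) in control cytosolic RNA. Over all libraries macrophage markers (3 genes) summed to 0.919 to 4.78 CPM, endothelial markers (4 genes) to 0.414 to 2.09, epithelial markers (4 genes) to 0.0615 to 0.461 and muscle markers (4 genes) to 2.26 to 53.4. One of the muscle markers was at 0 in every library, and no other marker was. The fibroblast markers moved with treatment as well. At 1 h 7 of the 8 were called higher and 1 lower in both kinds of RNA, with sums of 16900 to 20400 CPM in cytosolic and 32000 to 40100 CPM in polysome RNA (7760 to 9930 in control polysome RNA). Of all genes at 1 h, 28.1% were higher and 28.1% lower in cytosolic RNA, and 41.1% and 38.5% in polysome RNA. In cytosolic RNA all 8 fibroblast markers were lower at 16 h than in control, with a sum of 4020 to 4690 CPM (39.4% of all genes were lower). On polysomes at 16 h 3 were higher and 4 lower, with a sum of 9470 to 11700 CPM (42.3% and 42.9% of all genes). With the inhibitor all 8 were lower than in control in both kinds of RNA. Their sums there were 3810 to 4370 CPM in cytosolic and 3670 to 4120 CPM in polysome RNA. The shares of all genes lower in that comparison were 35.2% and 40.3%. The part of these markers in the results was not tested. All levels are shares of a library, so fewer cells of a kind and less RNA per cell cannot be told apart, and a change shared by every mRNA is not visible.

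Before stress, Hspa5 was the most abundant of the 10 mRNAs per length. In control cytosolic RNA it stood at 230 ± 19.8 CPM per kilobase of transcript (SD, n = 4). Manf (77.8 ± 6.95), Hyou1 (69.3 ± 0.768), Dnajb11 (65.5 ± 6.09) and Dnajc10 (64.0 ± 4.78) followed, then Sec63 at 48.4 ± 5.68 and Dnajc3 at 34.7 ± 2.7. The lowest were Sdf2l1 (22.5 ± 0.72), Dnajb9 (22.1 ± 2.3) and Sil1 (15.1 ± 0.905). Libraries of Hyou1, Dnajb11 and Dnajc10 overlapped in this order, as did those of Manf with Dnajb11 and those of Sdf2l1 with Dnajb9. At 16 h of thapsigargin the order per kilobase was Hspa5 (4180 ± 303), Manf (610 ± 18.9), Hyou1 (585 ± 23.9), Sdf2l1 (259 ± 16.8), Dnajb9 (179 ± 17.8), Dnajc3 (152 ± 14), Dnajb11 (126 ± 8.68), Sec63 (77.7 ± 8.35), Dnajc10 (57.7 ± 3.69) and Sil1 (18 ± 1.65). Manf and Hyou1 overlapped at 16 h, and so did Dnajb9 and Dnajc3. Sdf2l1 and Dnajb9 thus stood ahead of Dnajb11 and Dnajc10 after stress and behind them before it. The length used is that of the GENCODE transcript with the longest coding sequence, which may not be the isoform made in these cells.

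**Figure D1:**
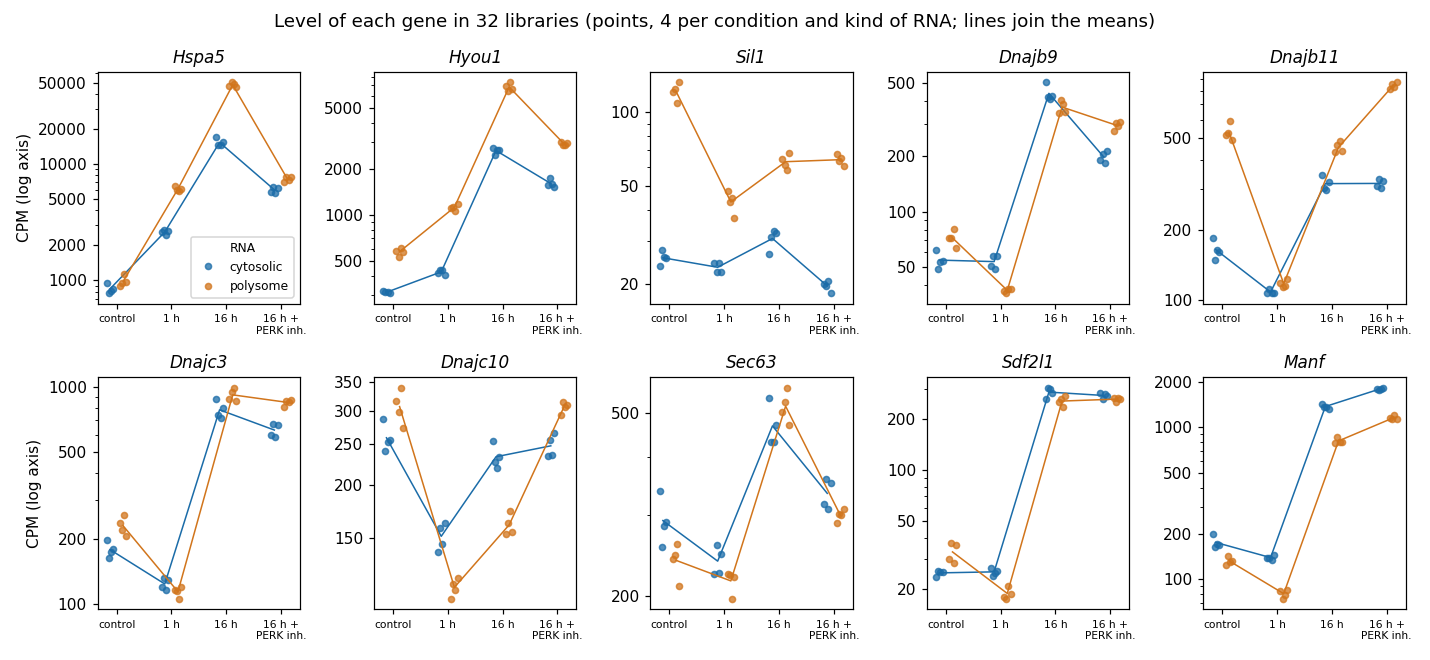
Level of each gene (CPM, log axis) by condition in cytosolic RNA (blue) and polysome RNA (orange). Points are single libraries, 4 per condition, and lines join the means. Hspa5 reached 45990 to 50300 CPM in polysome RNA at 16 h, while Sil1 stayed between 18.41 and 32.85 CPM in all 16 cytosolic libraries.

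At 1 h of thapsigargin the system split: mRNAs of BiP and of its exchange factor Hyou1 rose, and those of several J-domain proteins fell. Changes are log2 changes with their standard error (SE) from edgeR's quasi-likelihood test, and a gene was called at a Benjamini-Hochberg adjusted p under 0.05 over all genes. The comparisons share samples, since the control, 1 h and 16 h groups each enter several of them. In cytosolic RNA 7 of the 10 were called, 2 higher and 5 lower, where 56.2% of the 12366 genes tested were called (28.1% higher and 28.1% lower). Hspa5 was at 946.6, 776.6, 816.8 and 843.9 CPM in the control samples and at 2589, 2725, 2467 and 2659 CPM at 1 h. These groups lay far apart, and the log2 change was 1.61 ± 0.06, a 3.06-fold rise (adjusted p = 2.93e-12). Hyou1, the large Hsp70 relative that exchanges nucleotide on BiP, measured 314.7, 310.7, 312.2 and 306.5 CPM in control and 416.7, 435.2, 433.7 and 405.8 CPM at 1 h. Its rise was smaller, at 1.35-fold (log2 0.43 ± 0.04, adjusted p = 2.42e-07), and the groups did not overlap.

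Among the J-domain genes in cytosolic RNA at 1 h, Dnajc10, an ER disulfide reductase with a J domain, went from 240.7 to 285.9 CPM in the controls down to 138.8 to 162.8 CPM. That is 1.73-fold lower (log2 -0.79 ± 0.06). Dnajb11, which binds nascent and unfolded proteins and passes them to BiP, fell 1.54-fold (log2 -0.62 ± 0.06), from 148.7 to 185.3 CPM in control to 106.6 to 111.2 CPM. Dnajc3, an ER luminal J-domain protein, fell 1.45-fold and Sec63, the J-domain partner of the Sec61 translocon, 1.24-fold. For Sec63 the groups overlapped. Manf, a secreted ER protein that binds BiP and slows its nucleotide exchange, fell 1.27-fold. Sil1 (-0.14 ± 0.07), Dnajb9 (-0.04 ± 0.08) and Sdf2l1 (0.01 ± 0.06) did not pass the test, and Sil1 passed it at -0.21 without replicate 1 (adjusted p = 0.0109). Dnajb9 is an inducible J-domain protein that returns BiP to the sensor IRE1, and at 1 h its cytosolic level was 48.71 to 57.74 CPM against 48.55 to 62.21 in control.

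On polysomes the split at 1 h was wider. There 9 of the 10 genes were called, 2 higher and 7 lower, with 79.5% of 12065 genes called (41.1% higher and 38.5% lower). Hspa5 measured 892.5, 948.2, 1126 and 961.7 CPM in control polysome RNA and 6462, 5976, 5901 and 6106 CPM at 1 h, which is 6.45-fold higher (log2 2.69 ± 0.06, adjusted p = 5.86e-19). Hyou1 rose 2.02-fold. Dnajb11 was at 515.3, 526.5, 590 and 488.4 CPM in control and at 118.3, 113.2, 115.1 and 122.3 CPM at 1 h. This was the steepest fall of the 10, 4.36-fold (log2 -2.12 ± 0.05, adjusted p = 2.49e-18). Sil1 dropped 2.71-fold, Dnajc10 2.59-fold, Dnajc3 1.94-fold, Dnajb9 1.86-fold, Sdf2l1 1.69-fold and Manf 1.59-fold. Sec63 did not pass the test (log2 -0.10 ± 0.06), and passed it at -0.15 under another scaling of the libraries (adjusted p = 0.0428) and without replicate 4 (adjusted p = 0.0179).

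Translational efficiency is a gene's polysome RNA over its cytosolic RNA, tested as an interaction between kind of RNA and condition. It sets the change on polysomes against the change in cytosolic RNA, relative to the other mRNAs. In control samples the ratio of CPM was 4.74 for Sil1 (log2 2.24 ± 0.14, SD, n = 4) and 3.23 for Dnajb11 (1.69 ± 0.18). Of all genes, 99.7% and 95.9% had a lower ratio than Sil1 and Dnajb11. Hyou1 followed at 1.84, 5 others lay between 1.16 (Hspa5) and 1.32 (Dnajb9 and Sdf2l1), and Sec63 (0.821) and Manf (0.759) were below 1. At 1 h 9 of the 10 genes were called, 2 higher and 7 lower, with 67.8% of 12561 genes called (33.4% higher and 34.4% lower).

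Hspa5 had log2 ratios of -0.09, 0.29, 0.46 and 0.19 in the controls and 1.32, 1.13, 1.26 and 1.20 at 1 h. Its efficiency rose 2.02-fold (log2 1.01 ± 0.09, adjusted p = 1.39e-08). Hyou1 rose 1.44-fold (0.52 ± 0.07). Dnajb11 and Sil1, which had the highest control ratios, fell most. Dnajb11 fell 2.97-fold, from log2 ratios of 1.48 to 1.85 down to 0.03 to 0.19, and Sil1 2.57-fold, from 2.08 to 2.37 down to 0.73 to 0.96. The control ratio is itself part of this change, so a high ratio and a fall are not independent. Dnajb9 fell 1.89-fold, Sdf2l1 1.77-fold, Dnajc10 1.56-fold, Dnajc3 1.39-fold and Manf 1.31-fold. Sec63 did not pass the test (0.14 ± 0.11). Sil1, Dnajb9 and Sdf2l1 thus had a lower polysome share at 1 h with no called change in cytosolic level, though Sil1 was called lower there without replicate 1.

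Coding length moved with these ratios across all genes. The relation at 1 h was not in 1 direction: the median change in efficiency was 0.43 for 514 genes under 400 coding nucleotides, -0.14 for 934 of 400 to 600, -0.42 for 1650 of 600 to 900, -0.38 for 3394 of 900 to 1500, 0.13 for 3908 of 1500 to 3000 and 0.88 for 1729 over 3000. Hyou1 has 2997 coding nucleotides, Hspa5 1965, Dnajb9 666, Sdf2l1 663 and Manf 537. With the trend on coding length removed in each library, the change for Hspa5 at 1 h was 0.85 ± 0.10 (adjusted p = 3.73e-07) and that for Dnajb11 -1.24 ± 0.09. The call for Hyou1 was lost, at 0.02 ± 0.06 (adjusted p = 0.784), and the other 8 called changes of efficiency at 1 h kept their direction and their call.

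**Figure D2:**
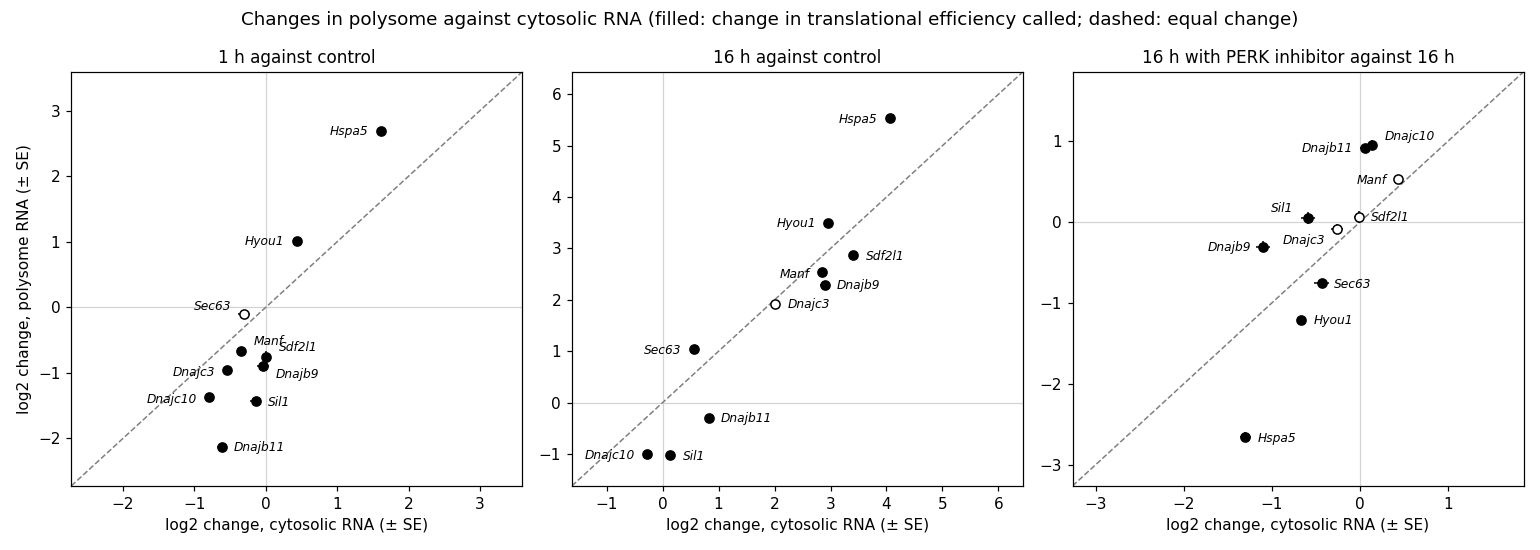
Log2 change in polysome RNA (vertical) against log2 change in cytosolic RNA (horizontal), with SE, for the 10 genes in 3 comparisons. Filled points were called for translational efficiency, and the dashed line marks equal change. Hspa5, Hyou1 and Sec63 lie above the line at 1 h and 16 h and below it in the inhibitor comparison. Sec63 was not called for efficiency at 1 h.

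After 16 h most of the system was strongly higher in cytosolic RNA. Of the 10 genes 9 were called, 8 higher and 1 lower, with 77.3% of all genes called (37.9% higher and 39.4% lower). The median change of the 10 was 2.43 on the log2 scale, against -0.01 over all genes tested. Hspa5 reached 16920, 14670, 14470 and 15340 CPM, where the highest control was 946.6 CPM. It was 16.7-fold higher than control (log2 4.06 ± 0.07, adjusted p = 3.21e-18). Sdf2l1, a soluble ER protein that forms a complex with Dnajb11, measured 23.7, 25.38, 25.34 and 25.13 CPM in control and 263.1, 304.8, 298.2 and 282.2 CPM at 16 h. Its rise of 10.6-fold (log2 3.41 ± 0.06, adjusted p = 9.9e-18) was the next in size. Hyou1 rose 7.76-fold to 2474 to 2724 CPM, Dnajb9 7.45-fold to 410.9 to 506.4 CPM, and Manf 7.21-fold to 1328 to 1429 CPM.

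The other J-domain genes rose less or not at all at 16 h. Dnajc3 was 4.04-fold higher (717.9 to 879.1 CPM), Dnajb11 1.77-fold (297.7 to 345.4 CPM) and Sec63 1.48-fold (431.1 to 538.7 CPM). Dnajc10 was 1.21-fold lower than control (log2 -0.27 ± 0.06, adjusted p = 0.000653), with 219.9 to 254.2 CPM against 240.7 to 285.9, groups that overlapped. Sil1, the second exchange factor, measured 26.65, 31.15, 32.85 and 32.28 CPM at 16 h and 23.79, 27.56, 25.75 and 25.52 in control. Its change of 0.14 ± 0.07 did not pass the test (adjusted p = 0.0949), and it passed at 0.16 without replicate 1 (adjusted p = 0.0269).

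Polysome RNA at 16 h carried an even larger rise of Hspa5, and falls of 3 genes. All 10 were called, 7 higher and 3 lower, with 85.1% of all genes called (42.3% higher and 42.9% lower). Hspa5 stood at 47020, 50300, 48470 and 45990 CPM, 46.4-fold above control (log2 5.54 ± 0.07, adjusted p = 3.96e-23), and 40 of the 12065 genes had a change at least as large, Hspa5 included. Hyou1 rose 11.4-fold to 6489 to 7332 CPM, Sdf2l1 7.32-fold, Manf 5.84-fold, Dnajb9 4.91-fold, Dnajc3 3.8-fold and Sec63 2.05-fold. The 3 that fell were Sil1 (2.03-fold, 58.12 to 68.1 CPM against 108.7 to 132.3), Dnajc10 (2.01-fold, 153.1 to 173.1 against 272.3 to 340) and Dnajb11 (1.23-fold, 436 to 483.1 against 488.4 to 590). Dnajb11 was thus higher in cytosolic RNA and lower on polysomes at the same time point.

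In translational efficiency at 16 h 9 of the 10 were called, 3 higher and 6 lower, with 64.2% of all genes called (31.1% higher and 33% lower). Hspa5 had log2 ratios of 1.48, 1.78, 1.74 and 1.58, and its efficiency was 2.7-fold above control (log2 1.43 ± 0.09, adjusted p = 1.49e-10). At a ratio of 3.13 it exceeded 99.1% of all genes, where in control it had exceeded 56.6%. Hyou1 was 1.42-fold higher and Sec63 1.35-fold, the latter with overlapping samples. Sil1 fell 2.31-fold, Dnajb11 2.25-fold, Dnajc10 1.72-fold, Dnajb9 1.57-fold, Sdf2l1 1.49-fold and Manf 1.28-fold, and Dnajc3 did not pass the test (-0.13 ± 0.10). With the coding length trend removed, Hspa5 stayed at 1.21 ± 0.10, while Hyou1 came to -0.03 ± 0.06, Sec63 to 0.09 ± 0.12 and Manf to -0.09 ± 0.08, and none of these 3 was called. When polysome RNA was regressed on the cytosolic RNA of the same gene in place of the ratio, the value for Hspa5 at 16 h kept its direction and its call. The slope for Hspa5 was -0.19, so its 16.7-fold cytosolic rise was not taken out of that value. The regression therefore cannot decide on its efficiency. The values for Dnajb9 (2.71), Manf (3.80) and Sdf2l1 (2.14) turned positive there, with slopes on cytosolic RNA of -0.112, -0.398 and 0.23, where the ratio sets the slope to 1.

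**Figure D3:**
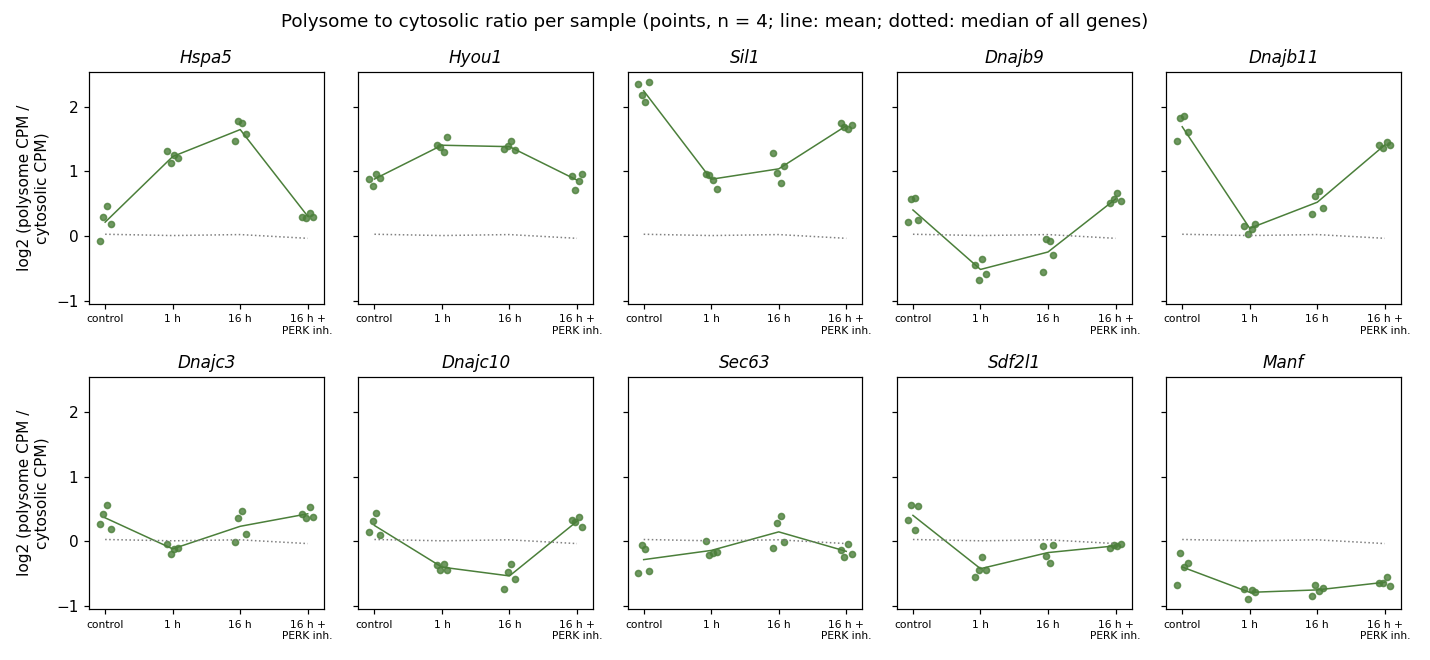
Polysome to cytosolic ratio of each gene (log2 of the ratio of CPM) by condition; points are the 4 samples, lines their means and the dotted line the median of all genes. Sil1 and Dnajb11 start highest and drop at 1 h and 16 h, Hspa5 does the reverse, and with the inhibitor both kinds move back toward the control values.

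Between 1 h and 16 h every gene of the system rose. All 10 were called higher in cytosolic RNA, where 75.3% of all genes were called, 37.7% higher and 37.7% lower, and all 10 again in polysome RNA, where 78.5% were called, 38.4% higher and 40% lower. In cytosolic RNA the rises were 10.5-fold for Sdf2l1, 9.14-fold for Manf, 7.65-fold for Dnajb9, 5.86-fold for Dnajc3, 5.76-fold for Hyou1 and 5.45-fold for Hspa5. Dnajb11 (2.73-fold), Sec63 (1.82-fold), Dnajc10 (1.43-fold) and Sil1 (1.21-fold) rose less, and the call for Sil1 was lost without replicate 4 (adjusted p = 0.0528). On polysomes Sdf2l1 rose 12.4-fold, Manf 9.27-fold, Dnajb9 9.13-fold, Dnajc3 7.36-fold and Hspa5 7.19-fold. Efficiency changed less over this interval: 4 of the 10 were called, all higher, with 28.1% of all genes called (14.5% higher and 13.6% lower). These were Hspa5 (1.34-fold), Dnajb11 (1.32-fold), Dnajc3 (1.27-fold) and Sdf2l1 (1.19-fold). Without replicate 2 only Dnajb11 of these was called, the call for Dnajc3 was also lost without replicate 3 (adjusted p = 0.0593), and the call for Sdf2l1 (adjusted p = 0.0494) was also lost without replicate 1, without replicate 4, with no filter on low counts and with the replicate number as a block.

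Inhibition of PERK in the last 4 h of the 16 h was followed by lower cytosolic levels of 6 of the 10 genes. Hspa5 fell most, and Dnajb11, Dnajc10 and Manf were higher on polysomes. In cytosolic RNA 8 of the 10 were called against 16 h without inhibitor, 2 higher and 6 lower, with 74.7% of all genes called (42.2% higher and 32.5% lower). Hspa5 measured 5772, 6368, 5660 and 6255 CPM with the inhibitor, all below the 14470 to 16920 CPM without it, which is 2.46-fold lower (log2 -1.30 ± 0.06, adjusted p = 3.26e-12). Dnajb9 fell 2.14-fold, from 410.9 to 506.4 CPM down to 184.7 to 213 CPM. Hyou1 was 1.58-fold lower, Sil1 1.5-fold, Sec63 1.35-fold and Dnajc3 1.19-fold. Manf went the other way: 1791, 1772, 1776 and 1824 CPM with the inhibitor against 1429, 1365, 1359 and 1328 without, 1.36-fold higher (log2 0.44 ± 0.05, adjusted p = 2.76e-07). Dnajb11 (0.06 ± 0.06) and Sdf2l1 (-0.01 ± 0.05) did not pass the test. Dnajc10 passed narrowly (0.14 ± 0.06, adjusted p = 0.0483, groups overlapping), and that call was lost with the replicate number as a block (adjusted p = 0.0517), with no filter, in DESeq2, with its size factors in edgeR, and without replicate 2, 3 or 4. The median change of all genes in this comparison was 0.10.

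On polysomes 7 of the 10 were called in the inhibitor comparison, 3 higher and 4 lower, with 82.8% of all genes called (42.1% higher and 40.7% lower). Hspa5 measured 7060, 7695, 7266 and 7686 CPM, 6.32-fold below its level without the inhibitor (log2 -2.66 ± 0.06, adjusted p = 5.5e-19). Hyou1 was 2.3-fold lower, Sec63 1.69-fold and Dnajb9 1.23-fold. Dnajc10 had 293.4, 314.3, 306.5 and 309.8 CPM with the inhibitor and 153.1, 162.8, 173.1 and 154.3 without it. That is a 1.94-fold rise (log2 0.96 ± 0.06, adjusted p = 3.11e-12) between groups that did not overlap. Dnajb11 rose 1.89-fold, to 815.1 to 868.1 CPM, and Manf 1.45-fold. Sil1 (0.06 ± 0.07), Sdf2l1 (0.07 ± 0.07) and Dnajc3 (-0.08 ± 0.06) did not pass the test, and Dnajc3 passed it at -0.14 without replicate 4 (adjusted p = 0.0427).

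Translational efficiency with the inhibitor was called changed for 7 of the 10 against 16 h alone, 4 higher and 3 lower, with 60.1% of all genes called (26.4% higher and 33.7% lower). Dnajb11 rose 1.85-fold (log2 0.88 ± 0.09), Dnajc10 1.79-fold, Dnajb9 1.76-fold and Sil1 1.59-fold. Hspa5 fell 2.53-fold (-1.34 ± 0.09, adjusted p = 5.78e-10), to log2 ratios of 0.29, 0.27, 0.36 and 0.30. Hyou1 fell 1.43-fold and Sec63 1.23-fold, and the samples of Sec63 overlapped. Dnajc3, Sdf2l1 and Manf did not pass the test. Of all called genes 43.9% were higher, and 54.0% were with the coding length trend removed. Under that correction Hspa5 was at -1.01 ± 0.10 and Dnajc10 at 1.30 ± 0.09, Dnajc3 passed at 0.32 ± 0.10 (adjusted p = 0.00956), and Hyou1 (0.07 ± 0.06) and Sec63 (0.13 ± 0.12) were no longer called. The call for Sec63 was also lost without replicate 2 (adjusted p = 0.172), 3 (0.115) or 4 (0.0643).

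Against untreated cells the inhibitor group, which had the full 16 h of thapsigargin, still had high mRNA levels of most of the system. In cytosolic RNA 8 of the 10 were called, 7 higher and 1 lower, with 73.3% of all genes called (38.1% higher and 35.2% lower). Sdf2l1 was 10.5-fold above control, Manf 9.77-fold, Hspa5 6.78-fold, Hyou1 4.9-fold, Dnajb9 3.48-fold, Dnajc3 3.38-fold and Dnajb11 1.84-fold. Sil1 was 1.37-fold lower, at 20.12, 19.69, 20.62 and 18.41 CPM, each below the lowest control of 23.79. Dnajc10 (-0.13 ± 0.06, adjusted p = 0.0606) and Sec63 (0.13 ± 0.08) did not pass the test. Dnajc10 passed at -0.17 in DESeq2 (adjusted p = 0.0168), and Sec63 at 0.22 without replicate 1 (adjusted p = 0.0045). On polysomes 9 were called, 8 higher and 1 lower, with 77.1% of all genes called (36.8% higher and 40.3% lower). Manf was 8.45-fold higher, Sdf2l1 7.66-fold and Hspa5 7.34-fold, and Sil1 1.95-fold lower. Dnajb11 was 1.54-fold higher, at 815.1 to 868.1 CPM, above every control polysome library (488.4 to 590).

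The ratios of polysome to cytosolic RNA in the inhibitor group lay near those of untreated cells for several genes. Of the 10, 4 were called for efficiency against control, all lower, with 43.4% of all genes called (16.3% higher and 27.1% lower) and a median of all genes of -0.12. These were Sil1 (1.45-fold lower), Sdf2l1 (1.39-fold), Dnajb11 (1.22-fold) and Manf (1.18-fold). Hspa5 differed from control by 0.09 ± 0.09 on the log2 scale, Hyou1 by -0.02 ± 0.07, Dnajc10 by 0.06 ± 0.08 and Dnajc3 by 0.06 ± 0.10, and none of these passed the test. The ratio of Hspa5 was 1.24 with the inhibitor, 3.13 at 16 h without it and 1.16 in control. The calls for Dnajb11 and Manf were lost with other size factors, in DESeq2, with the coding length trend removed, and without replicate 2, 3 or 4, which leaves 2 of 10. Over all called genes 37.6% were higher in this comparison, 50.2% with the other size factors and 51.2% with the length correction.

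**Figure D4:**
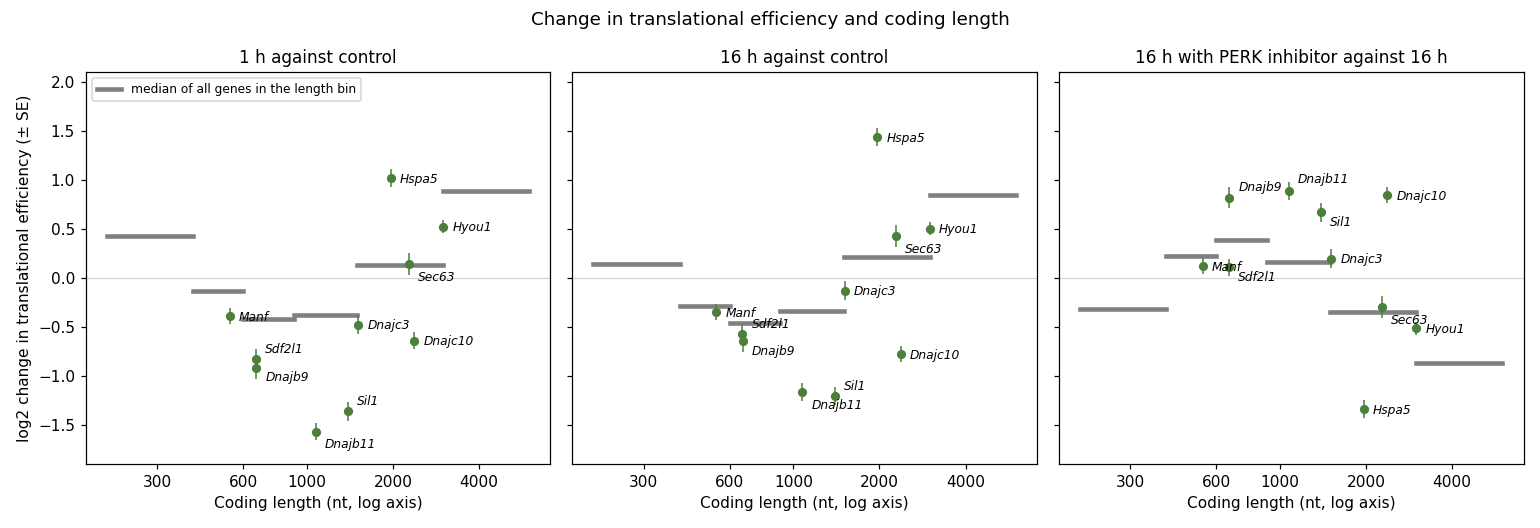
Change in translational efficiency (log2, ± SE) of the 10 genes against their coding length (log axis), with the median of all genes in each length bin as a grey bar; the bins at either end are open. Hspa5 (1965 nucleotides) lies above the bar of its bin at 1 h and 16 h and below it with the inhibitor, while Hyou1 (2997 nucleotides) lies at the edge between 2 bins.

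Hspa5 took a larger share of the library under stress, and a larger share relative to its cochaperones. Hspa5 took 0.102 ± 0.00696% of all counts in control cytosolic RNA, 0.305% at 1 h and 1.67 ± 0.0787% at 16 h, with 1.60% to 1.78% in the 4 libraries. In polysome RNA at 16 h it took 3.97 ± 0.123%. The other 9 genes together went from 0.178 ± 0.00927% to 0.714 ± 0.0148% in cytosolic RNA and from 0.185% to 0.860% on polysomes. Counts of Hspa5 per count of the other 9 were 0.569 ± 0.0109 in control cytosolic RNA, 2.03 ± 0.0503 at 1 h, 2.34 ± 0.0737 at 16 h and 1.11 ± 0.0365 with the inhibitor. On polysomes the same ratio was 0.438 ± 0.0307, 3.29 ± 0.144, 4.62 ± 0.229 and 1.06 ± 0.042. BiP mRNA thus outweighed its cochaperones in counts by 1 h, when the sum of the other 9 in cytosolic RNA was 0.150%, below every control library (0.169% to 0.191%).

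**Figure D5:**
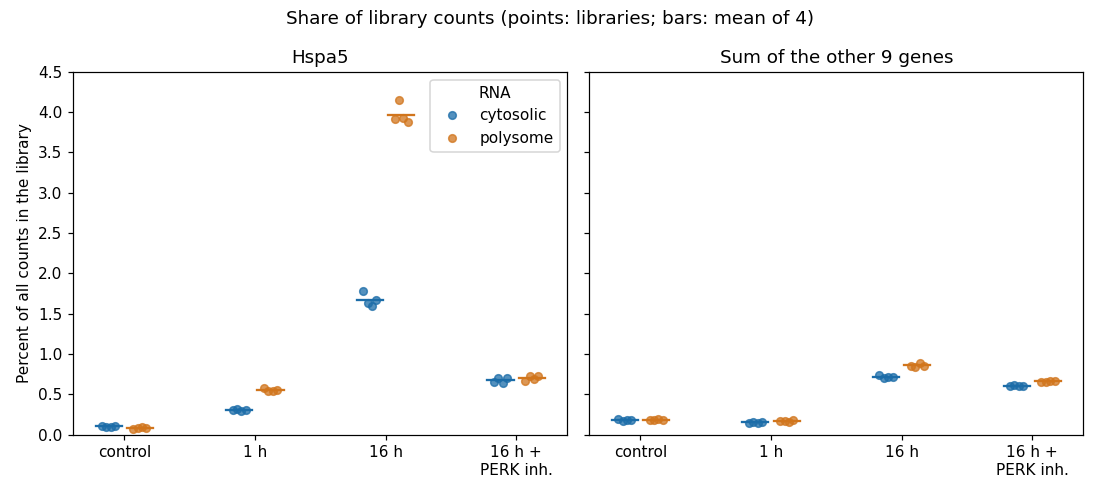
Share of all counts of a library taken by Hspa5 (left) and by the sum of the other 9 genes (right), in percent, by condition and kind of RNA. Points are libraries and bars the means of 4. Hspa5 in polysome RNA at 16 h lies at 3.88% to 4.15%, while the other 9 together do not pass 0.894% in any library.

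Relatives of these genes did not all move with them. Sdf2, the paralog of Sdf2l1, went down in cytosolic RNA at 16 h, 1.77-fold (log2 -0.82 ± 0.05), and 3.57-fold on polysomes, and rose 1.76-fold and 3-fold with the inhibitor. Cdnf, the paralog of Manf, was near the floor at 1.45 CPM in control cytosolic RNA, rose 2.38-fold at 16 h and fell 2.74-fold with the inhibitor, where Manf rose. Creld2, an ER luminal protein induced by stress, rose 5.82-fold in cytosolic RNA and 2.83-fold on polysomes at 16 h, and 1.93-fold on polysomes with the inhibitor. Ficd, which modifies BiP with AMP, rose 2.03-fold at 16 h, and Hspa13, another ER Hsp70 relative, 1.82-fold. The translocon protein Sec62, which binds Sec63, fell 1.14-fold, and the channel subunit Sec61a1 rose 2.16-fold. Over this list of BiP regulators and relatives, 7 of 10 were higher and 2 lower in cytosolic RNA at 16 h, with a median of 0.94. The shares over all genes were 37.9% higher and 39.4% lower.

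Of the 8 other J-domain proteins of the ER, 1 was higher and 5 were lower at 16 h in cytosolic RNA, with a median of -0.22. Of all genes tested there, 37.9% were higher and 39.4% lower. The 3 of this list with the smallest p were Dnajc22 (7.84-fold lower), Dnajc14 (1.44-fold) and Dnajb14 (1.92-fold). These rose with the inhibitor, by 2.89-fold, 1.67-fold and 1.35-fold. Dnajc22 was low in cytosolic RNA, at 5.88 CPM in control, 0.814 CPM at 16 h and 2.28 CPM with the inhibitor. Of 16 other ER folding factors 13 were higher and 2 lower at 16 h (median 0.86). Hsp90b1, the ER Hsp90 chaperone, rose 10.3-fold in cytosolic RNA and 25.7-fold on polysomes, with a 2.42-fold rise in efficiency. With the inhibitor it fell 2.22-fold and 3.6-fold. The lectin chaperone Calr (5.33-fold) and the disulfide isomerase Pdia6 (4.76-fold) also rose in cytosolic RNA, and their efficiency at 16 h fell 1.21-fold and 1.43-fold.

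Among the sensors and their factors, 4 of 5 were higher at 16 h and none lower. Atf6 rose 3.13-fold, Xbp1 2.11-fold and Ern1, which encodes IRE1, 1.91-fold. With the inhibitor Atf6 fell 3.18-fold, Ern1 2.42-fold and Xbp1 1.91-fold in cytosolic RNA, while Eif2ak3, which encodes PERK, did not pass the test (0.03 ± 0.04). In the cytosolic Hsp70 system 11 of 19 genes were higher and 3 lower at 16 h (median 0.34). Hspa4, an Hsp70 relative that exchanges nucleotide in the cytosol, rose 1.8-fold and Hspa14, also related to Hsp70, 1.77-fold, and the J-domain gene Dnajb1 fell 1.48-fold. At 1 h 14 of these 19 were higher and 1 lower in cytosolic RNA (28.1% of all genes higher and 28.1% lower), and 10 were higher and 7 lower on polysomes (41.1% and 38.5%). Of the 8 genes of the mitochondrial Hsp70 system 5 were higher and 1 lower at 16 h (median 0.58), with Dnaja3 rising 3.26-fold, Grpel1 1.54-fold and Grpel2 1.44-fold. These lists were not tested against each other, and the shares of all genes at 16 h in cytosolic RNA were 37.9% higher and 39.4% lower.

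The genes whose level pattern was most like that of Hspa5 lay outside the 10. Over the 8 group means (4 conditions in 2 kinds of RNA, log2 CPM), and among 9931 genes, the highest correlations with Hspa5 were those of Rab11fip1 (Pearson r = 0.989), Tnpo2 (0.984), Ide (0.982), Sec23b (0.980) and Lrrc40 (0.978). These points share libraries and treatments, so r is a description. Sec23b, a coat subunit of vesicles leaving the ER, rose 4.91-fold in cytosolic and 10.9-fold in polysome RNA at 16 h, and fell 1.53-fold and 3.5-fold with the inhibitor. The protease gene Ide rose 2.68-fold and 5.63-fold at 16 h. Rab11fip1 (2.46-fold), Lrrc40 (1.9-fold) and Tnpo2 (1.58-fold) rose less in cytosolic RNA at 16 h. A correlation ignores the size of a change, and Hspa5 itself rose 16.7-fold there. Of the cochaperone genes Hyou1 was closest to Hspa5, at rank 36 with r = 0.939, and Sec63 next at rank 623 with r = 0.747.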

How the data were processed

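The authors deposited raw counts per gene symbol, and these counts were used as deposited. Per the submitters' processing notes, HISAT, DESeq2 1.9.23 and build mm10 were used; the counting tool, strand setting and annotation used are not stated in the sources available here. Per the labels' protocols, libraries were made with TruSeq from cytosolic RNA and from the fractions of a sucrose gradient; the series design calls the cytosolic RNA an input of total RNA. No label says that replicates came from separate cultures; a p-value then reflects only how much these samples varied, which may be technical. Every pair of libraries of a group differed by more than sampling noise (lowest chi-square per degree of freedom 2.29 over genes with at least 10 counts).

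From the counts, edgeR 4.0.16 in R 4.3.3 was run with filterByExpr (minimum count 10, minimum total 15), TMM factors and robust quasi-likelihood tests. Cytosolic and polysome RNA were each fitted over 16 libraries with condition as group. Translational efficiency was fitted over all 32 with each sample as a block, which rests on the series design, since the 2 libraries of a sample deviated from their group means with a median correlation of only 0.036. P-values were Benjamini-Hochberg adjusted over all genes, and 5 comparisons in 3 measures gave 150 tests of the 10 genes, of which 120 were called. The share of all genes called ran from 28.1% to 85.1% over these comparisons and measures. CPM were scaled over all 32 libraries and changes within each fit, so ratios of printed CPM can differ somewhat from printed folds. Errors are SD over 4 libraries for levels and SE for changes. The fits were tested on simulated data. Alternatives were other size factors (RLE), DESeq2 1.42.0, no filter, each replicate left out, the replicate number as a block, a correction for coding length (loess span 0.5; 96.6% of genes had a length) and, for efficiency, no sample block and an analysis of partial variance with limma 3.58.1.

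The 10 genes, the gene lists and the motifs were chosen with earlier results of these data known. Besides the 10, the text names up to 3 genes per list with the smallest p in cytosolic RNA at 16 h against control, 6 relatives (Sdf2, Cdnf, Creld2, Hspa13, Ficd, Sec62) and the 5 genes most like Hspa5; Eif2ak3 was named after its values were seen. Protein sequences and the Sil1 locus were not used here.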

Additional observations from a re-analysis of the deposited data

Results flagged for a closer look

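In 3 of 80 groups of 4 libraries, 1 library stood apart from the others by Dixon's test; chance gives about 1 in 20 groups. Dnajb11 in cytosolic RNA at 1 h was at 111.2 CPM in replicate 2 and at 106.6 to 107.2 CPM in the others. Sec63 in polysome RNA at 1 h was at 197.6 CPM in replicate 3 and at 219.5 to 223.4 CPM in the others. Sdf2l1 in control cytosolic RNA was at 23.7 CPM in replicate 1 and at 25.13 to 25.38 CPM in the others.

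At 16 h against control Dnajb11 was higher in cytosolic RNA (1.77-fold) and lower in polysome RNA (1.23-fold), both called, and the test of the difference between the 2 kinds of RNA gave a 2.25-fold fall in efficiency (log2 -1.17 ± 0.09, edgeR adjusted p = 1.26e-09). No sample of either condition overlapped the other in either kind of RNA.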

How the results depend on the processing

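Of 1350 recomputed changes of the 10 genes, 1276 kept their direction and their side of the threshold, 24 gained a call, 37 lost one and 13 changed sign. Under the analysis of partial variance the changes in efficiency against control at 16 h became 2.706 (Dnajb9), 2.035 (Dnajc3), 2.139 (Sdf2l1) and 3.802 (Manf), and with the inhibitor against control 2.487 (Hyou1), 0.853 (Dnajb11), 2.193 (Sdf2l1) and 4.46 (Manf). Hyou1 came to 2.772 at 16 h against 1 h, and Dnajb9 to -0.458 with the inhibitor against 16 h. In that analysis the slope on cytosolic RNA had a median of -0.0255 over all genes and ran from -0.398 (Manf) to 0.238 (Sil1) in the 10, where the ratio sets it to 1. Its values therefore keep most or all of the change in cytosolic RNA and are not changes of the ratio. With the coding length correction Hyou1 came to -0.03 at 16 h against control, and Hyou1 and Sec63 to 0.069 and 0.131 with the inhibitor against 16 h. Genes of the 10 called for efficiency in the inhibitor group against control were 4, and 2 with RLE factors, DESeq2 or the length correction and 8 under partial variance; at 16 h against 1 h they were 4, and 8 under partial variance. With 1 replicate left out these counts ranged from 2 to 4 and from 1 to 5. Over all genes the count at 16 h against 1 h was 3527, and 2060 without replicate 2, 1935 without replicate 4 and 7306 under partial variance; in the inhibitor group against control it was 5450, and 3566 without replicate 4. The share of higher calls there was 49.5% in DESeq2 and 48.1% under partial variance. Length correction shifted the change of a gene by a median of 0.106 in that comparison, and partial variance by 0.101, and by 0.108 at 16 h against 1 h. The cause of the other differences was not tested. Replicate numbers did not pair samples across conditions by the requirement that every pair correlate over 0.1: 7 of 24 pairs did in cytosolic RNA (median 0.0165, range -0.426 to 0.583) and 3 of 24 in polysome RNA (median -0.0125, range -0.329 to 0.417). With the replicate block, 2 calls of the 10 genes were lost, Dnajc10 in cytosolic RNA with the inhibitor against 16 h (0.139, adjusted p = 0.0517) and Sdf2l1 in efficiency at 16 h against 1 h (0.244, adjusted p = 0.0713), and no other call changed. The lowest count of any of the 10 genes in a library was 359, and 4 samples per group limit the precision.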
